A study of Arabidopsis thaliana with 9 samples.

Results

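The comparison concerns shoot apices of Arabidopsis thaliana, accession Col-0, after 1 long day, set against apices of plants kept in short days. The tissue was the shoot apical meristem, cut out by laser dissection, and the readout was the number of sequence reads assigned to each locus. The LD1 group received 1 long day with 16 h of light and 8 h of darkness, and the LD0 group stayed in short days with 8 h of light and 16 h of darkness. Both groups were of the same wild-type accession, and they were chosen by their titles, which makes 6 of the 9 libraries of the series, 3 in LD1 and 3 in LD0. In each group a shotgun preparation of the whole transcriptome was used for A and B and a ready-to-run library for C. Since no label ties a library to its own set of plants, the p-values cover the spread from library to library, part or all of which may be technical.

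In Arabidopsis, long days are read in the leaf, where the light period stabilises the regulator CO and switches on the gene of the mobile signal FT. FT moves through the phloem to the meristem, binds the bZIP factor FD and activates SOC1, a MADS-box gene at which several flowering pathways meet, and later the floral identity genes AP1, FUL and LFY. Repressors such as SVP, FLC, the AP2 family and TFL1 hold the meristem in the vegetative state, and the transition is accompanied by a wider, more active apex.

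Depth was 124360, 711363 and 714559 reads in LD1 A, B and C, and 108753, 97153 and 2187205 reads in LD0 A, B and C. A count of 3 reads, the most that a count of 0 allows, stood for 5.03 to 19.8 reads per 1000000 (CPM) in LD1 and for 1.85 to 28.5 CPM in LD0, as far as counting error alone goes. The median correlation of log2 CPM across loci was 0.447 within LD1, 0.410 within LD0 and 0.441 between LD1 and LD0 libraries of the same letter, over 3 pairs each, and loci are not independent replicates in such a value. The file headers name BLASTN 2.2.21 for LD1 C, LD0 A and LD0 C and BLASTN 2.2.13 for LD1 A, LD1 B and LD0 B, so the versions differed between the groups in letter A. In LD3 C, a library of the series with 1 read column of each version, 127 of 8555 loci with at least 50 reads were over 2-fold apart between the columns. All 5 meristem markers (STM, CLV1, CLV3, WUS and KNAT1) had reads, with a sum of 545 to 815 CPM in LD1 and 484 to 714 CPM in LD0.

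Of the 23338 loci in the table, 9300 had enough reads to be tested. That filter used all 9 libraries, LD3 included, and 5403 loci passed it among the 6 LD1 and LD0 libraries alone. Across the 9300 loci the fitted log2 fold change of LD1 over LD0 had a median of −0.06, and 48.2% had a positive value. By edgeR's quasi-likelihood test with Benjamini-Hochberg adjustment, 0 loci were higher and 0 lower in LD1 at an adjusted p under 0.05, which is 0% in each direction. At an unadjusted p under 0.05 there were 592 loci (6.37%), of which 305 were higher in LD1 (3.28%) and 287 lower (3.09%). By DESeq2 10 loci passed as higher and 22 as lower, and by limma-voom 0 passed. The spread was wide, with a common biological coefficient of variation of 0.898 and a median standard error of 1.28 for a log2 fold change. All statements on single genes below are therefore levels and fitted differences that did not pass the threshold by edgeR, which does not show that the groups were alike. Where leaving out 1 LD1 or LD0 library moved the median of a gene list by over 1.5 times, values without such a library stand beside it.

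**Figure D1:**
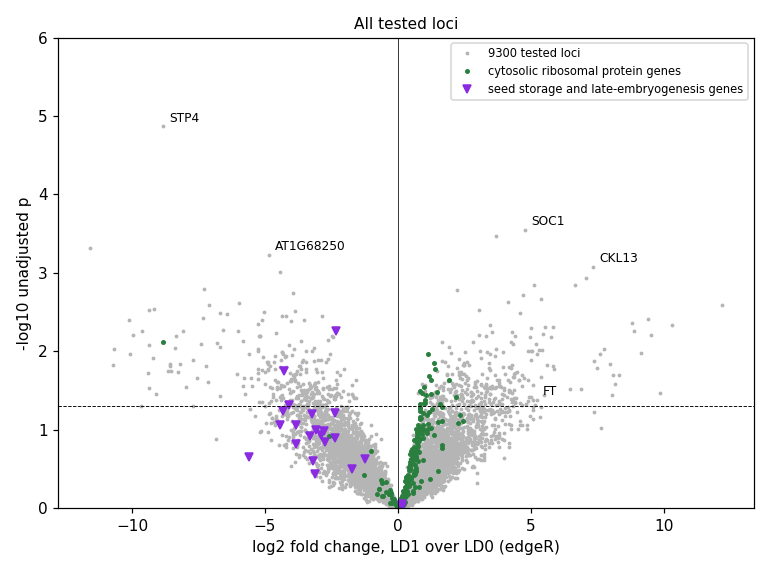
Each grey point is 1 of the 9300 tested loci, placed by its fitted log2 fold change of LD1 over LD0 (x axis) and by minus log10 of its unadjusted edgeR p (y axis), with a dashed line at the 0.05 threshold. Ribosomal protein genes (green) lie mostly right of 0 at small differences, seed storage and late-embryogenesis genes (violet triangles) mostly left of 0 at large ones, and STP4 lies highest.

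A further description used no test. In 400 loci (4.30%) all 3 LD1 libraries lay above all 3 LD0 libraries in CPM, and in 413 loci (4.44%) all 3 lay below. LD1 lay on the same side of LD0 within each of the letters A, B and C at 2090 loci (22.5%), higher at 1118 and lower at 972. These shares are the yardstick for the gene groups that follow.

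Among genes with at least 20 reads a library on average and LD1 higher in each letter, SOC1 (AT2G45660) had the smallest p. It stood at 329, 209.6 and 97.9 CPM in LD1 A, B and C, against 0, 9.5 and 8.01 CPM in LD0. The groups did not overlap, and the LD1 library was the higher one in all 3 letters. The fitted log2 fold change was +4.78 (SE 0.93), with an edgeR adjusted p of 0.772. Over the alternative settings the SOC1 value lay between +3.82 and +5.62, and its adjusted p was 0.00116 by DESeq2 and 0.0119 without a filter on low counts, the 2 settings in which it passed.

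The other 11 genes of the higher set had at least 20 reads a library on average and were higher in each letter. Each had an edgeR adjusted p of 0.772. CKL13, a casein kinase I family member, stood at 6.59, 16.8 and 296 CPM in LD1, against 0, 0 and 1.23 CPM in LD0. AT5G46190, annotated with an RNA-binding KH domain, stood at 85.6, 124 and 2725 CPM in LD1, against 8.97, 0 and 9.25 CPM in LD0. In both genes LD1 C was far above the other LD1 libraries, and every LD1 library except CKL13 in LD1 A lay above the 3-read limit of its own depth. In CKL13 the 0 reads of LD0 A and LD0 B allow up to 26.9 and 28.5 CPM, above LD1 A and LD1 B.

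Genes with a more even level across LD1 were AT2G44040, MGT9 and AT5G62440. AT2G44040, of the dihydrodipicolinate reductase family, an enzyme of lysine synthesis, stood at 270.1, 139 and 162 CPM in LD1, against 17.9, 19 and 33.3 CPM in LD0. MGT9, a magnesium transporter of the CorA type, stood at 72.5, 138 and 334 CPM in LD1, against 8.97, 9.5 and 11.1 CPM in LD0. AT5G62440, without a description in the deposited table, stood at 112, 43.6 and 274 CPM in LD1, against 0, 9.5 and 3.7 CPM in LD0. In all 3 genes the lowest LD1 library was above the highest LD0 library.

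The fitted log2 fold changes of these 3 genes were +3.06 (SE 0.81), +4.14 (SE 1.06) and +5.12 (SE 1.22). The remaining 6 of the set were PSBP-1, AT1G17510, AT5G40530, AT2G42230, AT1G12850 and AT5G48650. PSBP-1, an extrinsic subunit of the oxygen-evolving complex of photosystem II, stood at 191, 98.9 and 5100 CPM in LD1, against 17.9, 38 and 1128 CPM in LD0. LD1 lay above LD0 within each letter, while the groups overlapped because both C libraries were far above A and B. AT5G40530 had 2, 117 and 99 reads in LD1 and 0, 0 and 2 in LD0, a ratio of pooled reads of 167 (95% counting interval 45.8 to 1391).

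**Figure D2:**
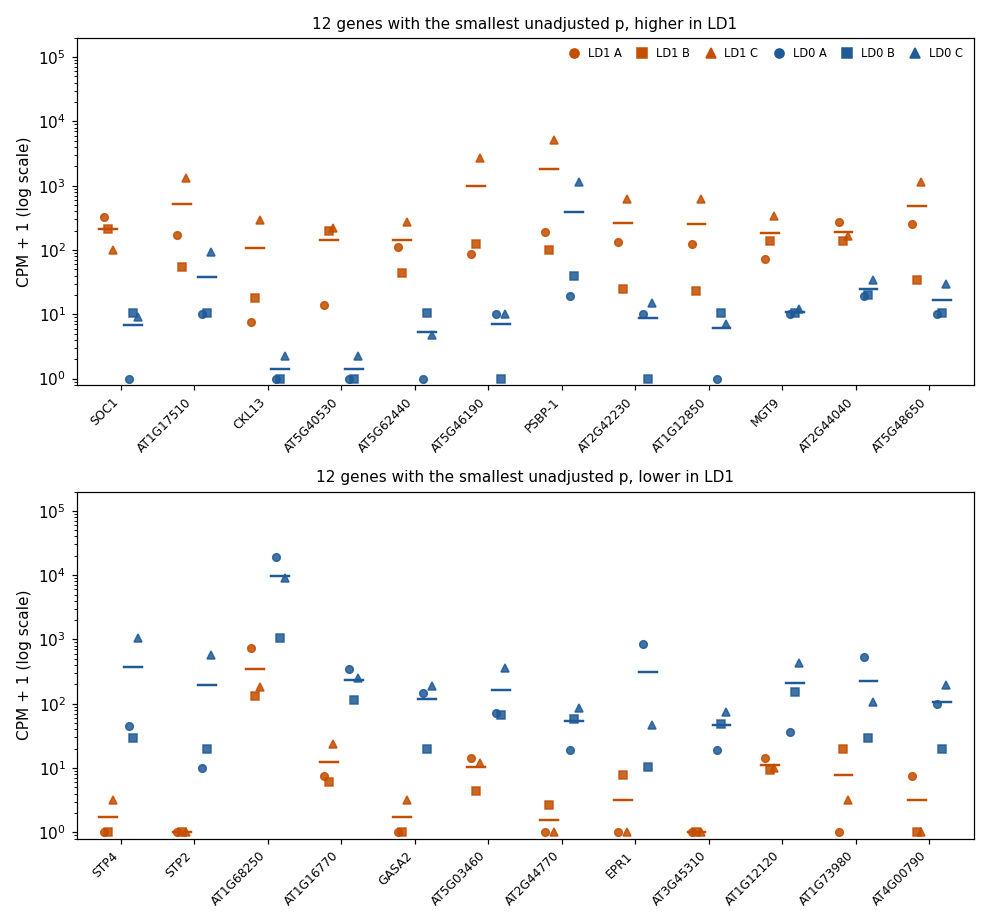
Points are CPM + 1 on a log scale in each library (circle A, square B, triangle C; orange LD1, blue LD0) and short lines are group means, for 12 genes in each direction. They have the smallest unadjusted edgeR p among loci with at least 20 reads a library on average and 1 sign in all letters. Because these same values chose them, their separation follows in part from the choice. Among the higher genes the 2 sets of points overlap in AT1G17510 and PSBP-1, and among the lower genes they overlap in none. In AT1G73980 LD1 B at 18.4 CPM is still under LD0 B at 28.5 CPM. The sets are closer in EPR1, with LD1 B at 6.71 CPM (4 reads) under LD0 B at 9.5 CPM (1 read). The lack of overlap in EPR1 thus rests on 1 read. In STP2 the lowest LD0 library, LD0 A at 8.97 CPM, also had 1 read, over 0 reads in each LD1 library.

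Among genes lower in LD1, STP4 (AT3G19930), a proton-coupled transporter of glucose and other hexoses, had the smallest p of all loci. It had 0, 0 and 1 reads in LD1 and 5, 3 and 1679 in LD0, so LD0 C held nearly all of them. The edgeR adjusted p was 0.126, and over the alternatives it ran from 2.93e-05 by DESeq2 to 1 with libraries B and C alone. The fit of B and C alone also left out LD3 and had the fewest libraries of all settings. STP2, another hexose transporter of that family, had 0 reads in each LD1 library and 1, 2 and 919 reads in LD0. Pooled over the groups, with 3 reads as the limit for LD1, STP2 was at least 200.1-fold lower in LD1, a value that rests on LD0 C.

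Other lower genes had reads spread over the LD0 libraries. AT1G68250, annotated as an unknown protein, was the most abundant of the set and stood at 725, 131 and 178 CPM in LD1, against 19070, 1064 and 8914 CPM in LD0. It alone took 1.96% of the reads of LD0 A, more than any other locus there. Its fitted log2 fold change was −4.84 (SE 1.03). AT1G16770, without a description, stood at 6.59, 5.03 and 22.3 CPM in LD1, against 341, 114 and 248 CPM in LD0, a log2 fold change of −4.42 (SE 1.00). In both genes the groups did not overlap.

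Genes of the cell surface and of protein breakdown were also in the lower set. GASA2, a small cysteine-rich peptide of the gibberellin-regulated GASA family, had 0, 0 and 1 reads in LD1 and 16, 2 and 308 in LD0. EPR1, an extensin-like wall protein, had 0, 4 and 0 reads in LD1 and 96, 1 and 75 in LD0. AT3G45310, annotated as a cysteine proteinase, had 0 reads in each LD1 library and 2, 5 and 120 in LD0, and was at least 27.6-fold lower by pooled reads. The other lower genes of the set were AT5G03460, AT2G44770, AT1G12120, AT1G73980 and AT4G00790, all with adjusted p of 0.772.

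Flowering genes other than SOC1 were read from a list of 26 floral promoters, of which 10 had enough reads over the 9 libraries. Of these, 8 had a positive and 2 a negative fitted value, with a median log2 fold change of +2.02 where that over all tested loci was −0.06. SOC1, SPL15 and FTM1 lay above LD0 in all LD1 libraries and AGL24 below, 3 and 1 of the 10 beside 4.30% and 4.44% of all tested loci. FTM1 did so with only 1, 1 and 2 reads in LD1 A, B and C. The median within letters was +2.14 in A, +1.08 in B and +0.26 in C, beside 0.00, +0.38 and −0.62 over all tested loci. Without LD1 A the median was +1.16, with 7 of 11 positive. Among the 6 LD1 and LD0 libraries alone it was +0.58, with 4 of 6, and FTM1 and SPL9 were not tested there for want of reads.

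FT (AT1G65480), the mobile flowering signal, stood at 1528, 20.12 and 0 CPM in LD1 and at 35.9, 0 and 4.32 CPM in LD0. LD1 A held 232 of the 244 LD1 reads, the groups overlapped, and LD1 C had none. The log2 fold change was +5.24 (SE 2.29), an edgeR adjusted p of 0.772, and without LD1 A it was −0.26. FT is a gene of the leaf phloem, and the phloem marker SUC2, a sucrose transporter of companion cells, was at 0, 526 and 31.2 CPM in LD1 and at 35.9, 294 and 16.0 CPM in LD0. In LD1 A, the library with most FT reads, the 12 listed vascular markers that have a row in the count table were all at 0 reads. At that depth 0 reads allow up to 19.8 CPM for each gene. The same 12 markers summed to 33.4 CPM in LD1 C, 44.8 CPM in LD0 A and 59.8 CPM in LD0 C. In LD1 B and LD0 B they summed to 708 and 560 CPM. Whether the FT reads came from vascular tissue was not tested. In tissue samples such as these, a change in the share of a cell type and a change in RNA per cell cannot be told apart.

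FD (AT4G35900), the meristem partner of FT, stood at 520.4, 233 and 327 CPM in LD1 and at 197, 323 and 49.9 CPM in LD0. The groups overlapped through letter B, and the log2 fold change was +1.24 (SE 0.69). SPL15 (AT3G57920), a factor of the age pathway that activates FUL in the meristem, stood at 125, 117 and 158 CPM in LD1, against 53.8, 38 and 81.36 CPM in LD0. Its groups did not overlap, with a log2 fold change of +1.38 (SE 0.87). AGL24 (AT4G24540), a MADS-box promoter of flowering that acts with SOC1, went the other way, at 52.7, 73.8 and 55.6 CPM in LD1, against 89.7, 114 and 146 CPM in LD0.

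The value of AGL24 was −0.93 (SE 0.71), and all 3 LD1 libraries lay below all 3 LD0 libraries. FTM1 (AT1G43800), annotated as a desaturase of acyl carrier proteins, had 1, 1 and 2 reads in LD1 and 0, 0 and 1 in LD0. The ratio of pooled reads was 6.14, with a 95% counting interval of 0.608 to 303. SPL9 had 2, 7 and 0 reads in LD1 and 0, 0 and 2 in LD0, and FLOR1 (AT3G12145), a leucine-rich repeat protein, stood at 501, 290 and 64.5 CPM in LD1 and at 152, 256 and 237 CPM in LD0. The value of FLOR1 was +0.14 (SE 0.71), and it was below 0 under 5 alternatives.

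The floral identity genes were near the limit of detection. FUL had 0, 3 and 0 reads in LD1 and 0, 0 and 2 in LD0. AP1, which specifies floral meristems, had 0, 15 and 0 reads in LD1 and 0 in each LD0 library, and LFY had 0 in each LD1 library and 0, 1 and 2 in LD0. At these depths no difference was detectable for FUL and LFY, and the AP1 reads came from a single library.

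The list of floral repressors had 22 members and 7 tested ones, 5 with positive and 2 with negative values and a median log2 fold change of +1.37, which was +0.22 with 7 of 12 positive without LD0 A. AP2 (AT4G36920), which delays flowering and later sets sepal and petal identity, stood at 184, 199.5 and 309 CPM in LD1, against 44.8, 114 and 107 CPM in LD0. The groups did not overlap, with a value of +1.37 (SE 0.62, unadjusted edgeR p 0.0499). MAF2, a relative of FLC, stood at 19.8, 18.4 and 797 CPM in LD1 and at 8.97, 0 and 139 CPM in LD0, higher in each letter but carried by the C libraries in both groups.

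SVP (AT2G22540), the MADS-box repressor that binds the SOC1 promoter, stood at 230.5, 127 and 469.7 CPM in LD1 and at 62.8, 142 and 339.6 CPM in LD0, with a value of +0.68 (SE 0.59) and groups that overlapped. TFL1, which keeps the centre of the meristem indeterminate, stood at 52.7, 30.2 and 2.23 CPM in LD1 and at 0, 9.5 and 168 CPM in LD0. Its value was −0.62 (SE 2.08), with the letters A and B one way and C the other, and it was +2.70 without LD0 C. FLC (AT5G10140) had 0 reads in each LD1 library and 0, 4 and 9 in LD0. TOE2, an AP2 relative, stood at 19.8, 15.1 and 0 CPM in LD1 and at 17.9, 85.5 and 18.5 CPM in LD0.

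**Figure D3:**
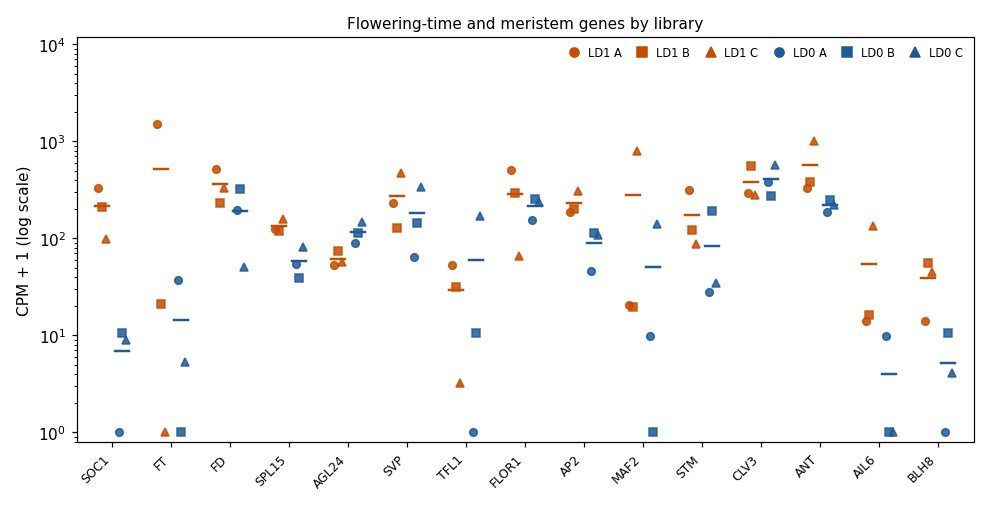
Points are CPM + 1 on a log scale in each library (circle A, square B, triangle C; orange LD1, blue LD0) and short lines are group means, for 15 flowering-time and meristem genes. The groups are apart in SOC1, SPL15, AP2, ANT, AIL6 and BLH8 with LD1 above, and in AGL24 with LD1 below. In FT the LD1 mean is set by LD1 A at 1528 CPM.

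Genes that keep the meristem had a median near 0, which changed sign in 3 of the 15 settings run though not on leaving out 1 library. Of 24 listed genes of meristem maintenance 18 were tested, 9 positive and 9 negative, with a median log2 fold change of +0.12. In 3 of the 18 all LD1 libraries lay above LD0, beside 4.30% of all tested loci, and in none below. These 3 were BLH8, ANT and AIL6. The median of the list was −0.10 among the 6 LD1 and LD0 libraries alone, with 4 of 11 positive, and with 1 library left out it ran from +0.02 without LD0 A to +0.79 without LD0 B, where 15 were positive and 5 negative.

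BLH8 (POUND-FOOLISH), a homeodomain partner of KNOX proteins that is needed for the apex to respond to floral signals, stood at 13.2, 55.3 and 44.5 CPM in LD1, against 0, 9.5 and 3.08 CPM in LD0. ANT, an AP2-type factor that promotes growth of organ primordia, stood at 329, 381 and 1011 CPM in LD1, against 188, 247 and 221 CPM in LD0. AIL6, a relative that acts with ANT in young floral meristems, stood at 13.2, 15.1 and 134 CPM in LD1, against 8.97, 0 and 0 CPM in LD0. The lack of overlap rested on 2 reads in LD1 A in both BLH8 and AIL6, over 1 read in LD0 B and LD0 A. The log2 fold changes of BLH8 and ANT were +3.34 (SE 1.34) and +1.22 (SE 0.54), and AIL6 had 1 read in LD0, so its ratio of pooled reads was 109 with a 95% counting interval of 18.9 to 4367.

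The core regulators did not separate the groups. CLV3 (AT2G27250), the peptide signal of stem cells, stood at 289.8, 560 and 280.5 CPM in LD1 and at 377, 275 and 573 CPM in LD0, with a value of −0.09 (SE 0.58). STM, the KNOX factor that keeps cells undifferentiated, stood at 316, 122 and 86.8 CPM in LD1 and at 26.9, 190 and 33.3 CPM in LD0, with a value of +1.14 (SE 0.80). WUS, the organiser of the stem cell niche, had 0, 2 and 0 reads in LD1 and 0, 1 and 19 in LD0. All 3 had overlapping groups, and the sign of CLV3 changed under 4 alternatives.

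Organ boundary, polarity and epidermal genes gave small counts. Of 9 boundary genes 4 were tested, 1 positive and 3 negative, and of 18 polarity genes 11, 7 positive and 4 negative. REV, a class III homeodomain factor of the upper organ side, stood at 79, 16.8 and 60.1 CPM in LD1 and at 17.9, 0 and 23.4 CPM in LD0, higher in each letter. CER3, a wax synthesis gene of the epidermis, stood at 19.8, 10.1 and 4.45 CPM in LD1, against 44.8, 85.5 and 71.5 CPM in LD0, without overlap. The epidermal list as a whole had 9 positive and 5 negative values, which became 7 and 7 without LD1 A or without LD0 B, and a summed level of 1213 to 1752 CPM in LD1 and 1136 to 1501 CPM in LD0.

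Growth regulators of the GRF, GIF and TCP families and the organ growth gene CYP78A5 had 8 positive and 2 negative values among 10 tested, with a median log2 fold change of +0.47. GIF2, a transcriptional coactivator of the GRF proteins, stood at 250.3, 63.7 and 160.3 CPM in LD1, against 62.8, 38 and 45.6 CPM in LD0, without overlap. CYP78A5 (KLUH), a cytochrome P450 that prolongs organ growth, stood at 1166, 1469 and 267 CPM in LD1 and at 708, 959 and 204 CPM in LD0, higher in each letter by a small step. The median of this list kept its sign under all 15 settings run and was +1.01 without LD0 B.

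Hormone genes were read by pathway. Of 16 tested cytokinin genes 13 had positive and 3 negative values, with a median log2 fold change of +0.67 and medians of +0.59, +1.01 and +0.91 in the letters A, B and C. Of 25 tested auxin genes 8 were positive and 17 negative, with a median of −0.64. Both medians kept their sign under all 15 settings run, but without LD0 A the cytokinin genes stood at 10 positive and 9 negative, with a median of +0.30, and without LD1 B the median was +1.16. The auxin median ran from −0.98 without LD1 B to −0.34 without LD1 A.

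RR4, a cytokinin-induced response regulator that damps the signal, stood at 85.6, 191 and 307 CPM in LD1, against 53.8, 85.5 and 48.1 CPM in LD0. The lowest LD1 library was just above the highest LD0 library, and the value was +1.65 (SE 0.75). RR12, a response regulator that activates cytokinin targets, stood at 13.2, 50.3 and 40.1 CPM in LD1 and at 0, 19 and 2.47 CPM in LD0. CKX3, an oxidase that degrades cytokinin and limits meristem activity, stood at 0, 11.7 and 109 CPM in LD1 and at 0, 0 and 8.01 CPM in LD0, with no reads in letter A.

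Of the auxin genes, 3 lay below LD0 in every LD1 library and 0 above, beside 4.44% and 4.30% of all tested loci. DRN, an AP2-type factor of auxin signalling in the meristem and young primordia, stood at 6.59, 1.68 and 0 CPM in LD1, against 17.9, 47.5 and 54.2 CPM in LD0. IAA8, a repressor of auxin response factors, stood at 158, 211 and 140.2 CPM in LD1, against 242, 437 and 365 CPM in LD0. The third was LAX2, an auxin importer, at 13.2, 30.2 and 20.03 CPM in LD1, against 179, 38.0 and 30.2 CPM in LD0, named after its values were seen. In LAX2 the levels of LD1 B and LD0 C were equal to the digits given, so its count as below LD0 was close to a tie.

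The values of IAA8 and LAX2 were −1.03 (SE 0.55) and −1.57, and DRN had 2 reads in LD1, with a pooled ratio of LD0 over LD1 of 30.9 (95% counting interval 8.33 to 259). ARF8, an auxin response factor of flower and fruit growth, was higher instead, at 52.7, 67.1 and 690 CPM in LD1 and 8.97, 28.5 and 130.1 CPM in LD0.

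Gibberellin, the hormone that speeds flowering in short days, had 3 positive and 8 negative values among 11 tested genes, a median log2 fold change of −0.89, and +0.36 with 1 read column per library. With 1 library left out the median ran from −1.18 without LD0 C to −0.21 without LD1 A. GA20OX2, which makes gibberellin precursors and acts at the apex during the transition, stood at 6.59, 30.2 and 232 CPM in LD1, against 0, 0 and 4.32 CPM in LD0. The groups did not overlap, although LD1 A rested on 1 read. RGL1, a DELLA repressor, had 0 reads in each LD0 library and 0, 55.3 and 82.4 CPM in LD1, at least 35.8-fold higher by pooled reads. SPY, a negative regulator of the pathway, stood at 26.4, 8.38 and 13.4 CPM in LD1 and at 134, 38 and 7.4 CPM in LD0.

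Among the 46 lists the largest difference in mean share of reads was that of cytosolic ribosomal protein genes, with 17.5% ± 4.94 in LD1 and 11.8% ± 0.483 in LD0 (SD, n = 3 each). They took 19.9%, 11.8% and 20.7% of the reads of LD1 A, B and C, against 11.5%, 12.4% and 11.6% in LD0. Thus LD1 A and LD1 C were above all LD0 libraries and LD1 B was within their range. Of 232 listed genes 209 were tested, and 176 had positive and 33 negative values, with a median log2 fold change of +0.53.

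In 32 of the 209 (where 4.30% of all loci did so) the LD1 libraries lay above LD0, and in 1, the RPS9 copy AT5G39850, below. The side was the same in each letter for 97 of the 209, beside 22.5% of all loci, with LD1 higher in 95 and lower in 2. The median within letters was +0.59, +0.24 and +0.74 in A, B and C, beside 0.00, +0.38 and −0.62 over all loci, so in letter B it was under the median of all loci. It kept its sign under all settings, from +0.22 with A and B alone, where 137 of 181 were positive, to +0.64 without LD0 B. Without LD1 B it was also +0.64, with 171 of 205.

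Among single copies, AT1G52300, a gene of the large-subunit protein L37, stood at 1844, 2146 and 11780 CPM in LD1, against 1255, 1434 and 1754 CPM in LD0, without overlap. AT5G47700, a gene of the acidic stalk protein P1, stood at 2510, 3293 and 1589 CPM in LD1 and at 1686, 1520 and 488 CPM in LD0, higher in each letter. RPS15AB (AT2G19720) had 0 reads in each LD1 library and was at 0, 19 and 54.9 CPM in LD0. Ribosomal protein genes have near-identical copies, and the sources used here do not state how reads matching several of them were assigned, which makes the values of single copies uncertain.

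Other genes of protein synthesis also had mostly positive values. Of 29 tested translation factor genes 21 had positive values, with a median of +0.43 that was −0.07 with A and B alone and +0.05 without LD1 C. In 3 of the 29 all LD1 libraries lay above LD0 and in 0 below, beside 4.30% and 4.44% of all loci. AT1G07920, a gene of elongation factor 1-alpha with near-identical copies, stood at 1759, 2119 and 4004 CPM in LD1, against 1175, 1121 and 722 CPM in LD0. Of 17 genes of ribosome biogenesis 13 were positive, with a median of +0.35 that was +0.15 without LD0 B. The side was the same in each letter for 7 of them, all higher in LD1, beside 22.5% of all loci. EBP1, a regulator of organ growth linked to ribosome assembly, stood at 856, 369 and 1474 CPM in LD1, against 242, 218 and 356 CPM in LD0, with a value of +1.64 (SE 0.51).

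Cell division genes had medians nearer to 0. Of 38 tested histone genes 26 were positive and 12 negative, with a median of +0.17 that was −0.19 with A and B alone and ran from −0.01 without LD0 A to +0.39 without LD0 B, and their share of reads was 2.89%, 1.80% and 1.84% in LD1 and 1.85%, 2.46% and 1.37% in LD0. Of 17 genes of DNA replication 11 were positive, with a median of +0.29, and +0.19 without LD1 B to +0.55 without LD1 A. MCM2, a subunit of the replicative helicase, stood at 119, 111 and 979 CPM in LD1 and at 35.9, 57 and 376 CPM in LD0, higher in each letter. CYCB1;1, a mitotic cyclin, stood at 85.6, 60.4 and 476 CPM in LD1, against 0, 38 and 59.8 CPM in LD0, where LD1 B was barely above LD0 C. Of the 29 tested cell cycle genes as a whole 16 were positive and 13 negative, with a median of +0.27 that was −0.31 without LD1 B and −0.08 without LD1 A.

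Chromatin genes had 18 positive and 12 negative values among 30 tested, with a median of +0.17 that was −0.14 without LD1 C and +0.44 without LD0 A. REF6, a histone demethylase that counters Polycomb silencing, stood at 138, 58.7 and 122 CPM in LD1, against 35.9, 9.5 and 54.2 CPM in LD0, without overlap. HDA6, a histone deacetylase, stood at 39.5, 201 and 899 CPM in LD1 and at 44.8, 57 and 75.2 CPM in LD0. Of 14 tested genes of the small RNA pathway 5 were positive and 9 negative. Their median was −0.62, and +0.15 without LD0 A. HST, the exportin of microRNAs, was at 6.59, 1.68 and 0 CPM in LD1, against 80.7, 9.5 and 164 CPM in LD0. Its groups did not overlap, with 2 reads in LD1, and the lowest LD0 library, LD0 B, had 1 read. HEN1 and SGS3, which followed HST by p in that list, went the other way, at +2.74 (SE 1.13) and +1.64 (SE 1.23).

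Genes of mRNA splicing and of protein turnover had 12 of 17 and 22 of 33 positive values, with medians of +0.29 and +0.36. SR45, a splicing factor with a role in flowering time, stood at 257, 161 and 2996 CPM in LD1, against 117, 114 and 86.3 CPM in LD0 with most of the difference in letter C. PAG1, a proteasome core subunit, stood at 843, 1125 and 815 CPM in LD1, against 439, 437 and 605 CPM in LD0, without overlap. The splicing median ran from +0.24 without LD1 B to +0.82 without LD0 B, and the protein turnover median was +0.09 without LD1 C and +0.07 with A and B alone, where 17 were positive and 15 negative.

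**Figure D4:**
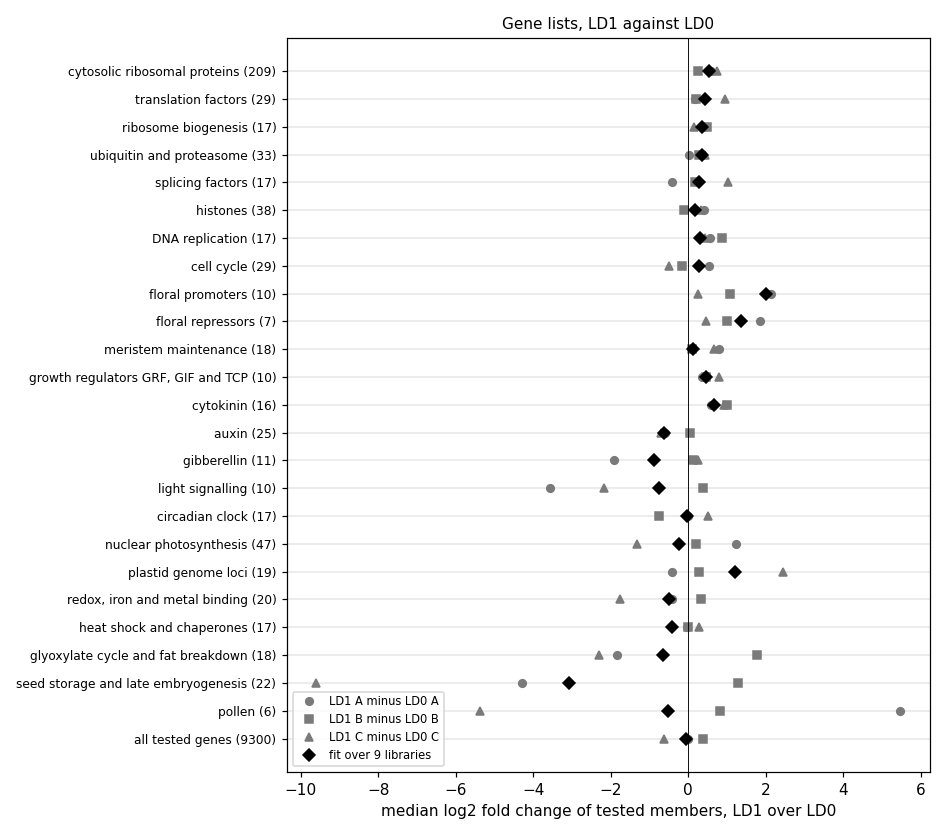
Black diamonds are the median fitted log2 fold change of LD1 over LD0 over the tested members of a list (their number in brackets) and grey symbols are the medians of LD1 minus LD0 log2 CPM within the letters A (circle), B (square) and C (triangle). The diamonds of the lists at the top, from ribosomal proteins to cell cycle, lie right of 0. Their letters lie on both sides of 0 in some, as from −0.43 in A to +1.02 in C for splicing factors and from −0.51 in C to +0.55 in A for cell cycle. The seed storage list near the bottom spreads from −9.60 in C to +1.28 in B.

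Among the 46 lists the median farthest from 0 was that of seed storage and late-embryogenesis genes, the products that fill and protect the ripening embryo. Of 22 tested genes 20 had negative and 2 positive values, with a median log2 fold change of −3.09. The letters disagreed, with medians of −4.29 in A, +1.28 in B and −9.60 in C. The list took 0.597%, 2.76% and 0.114% of the reads in LD1 A, B and C, against 7.55%, 1.78% and 6.94% in LD0. The median was −5.80 without LD1 B, −1.09 without LD0 C, −1.68 without LD1 C, and −1.08 with A and B alone.

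SESA5, a 2S albumin, stood at 1146, 2352 and 1298 CPM in LD1, against 13370, 3647 and 6712 CPM in LD0, one of the 2 genes of the list without overlap. The other, LEA4-5, a protectant of drying cells, stood at 26.4, 295 and 0 CPM in LD1, against 1022, 541 and 1326 CPM in LD0. EM6, a late-embryogenesis protein, stood at 909, 4292 and 0 CPM in LD1 and at 18600, 2650 and 31070 CPM in LD0, where EM6 was the most abundant locus of LD0 C. RAB18, a dehydrin, was the most abundant locus of LD1 B, at 25810 CPM. Whether these reads came from the meristem cells or from RNA of another tissue was not tested.

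Pollen genes were high in letter B of both groups, at a summed 494, 12750 and 203 CPM in LD1 A, B and C and at 89.7, 6876 and 1865 CPM in LD0. Of 13 listed pollen genes 11 had reads in these libraries. The B libraries of both groups were the highest, and they were also the libraries with the highest summed level of vascular markers, 708 CPM in LD1 B and 560 CPM in LD0 B. The part of these genes in the other results of letter B was not tested.

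**Figure D5:**
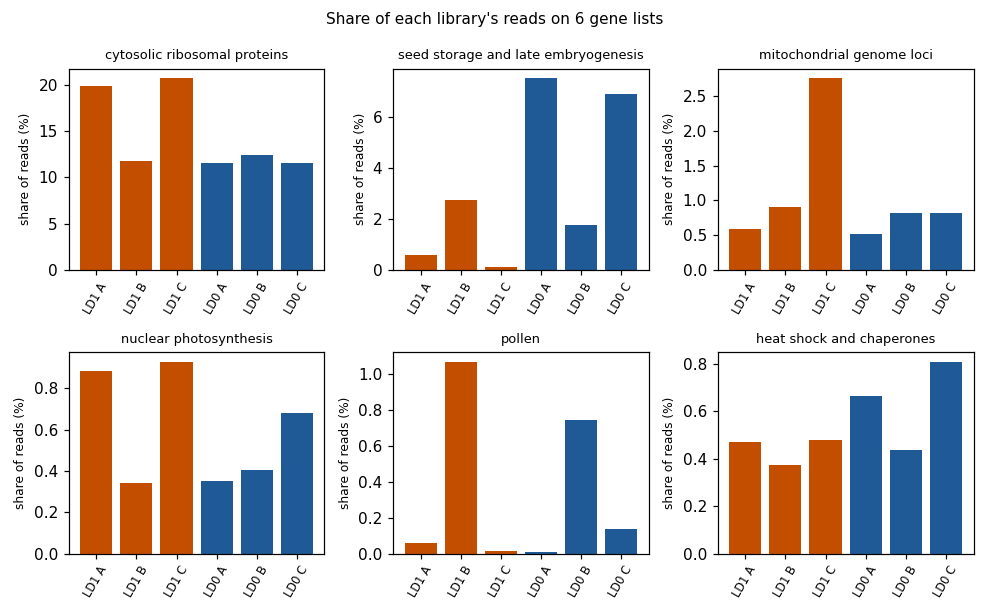
Bars are the percent of all reads of a library that fell on 6 gene lists, with the LD1 libraries in orange left of the LD0 libraries in blue and every axis from 0. LD1 A and LD1 C stand above LD0 in ribosomal protein genes while LD1 B does not, seed genes are high in LD0 A and LD0 C, and pollen genes are high in the B library of each group.

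Enzymes that turn stored fat into sugar gave a similar split by letter. Of 18 tested genes of the glyoxylate cycle and fat breakdown 6 were positive and 12 negative, with a median of −0.65 and medians of −1.84, +1.76 and −2.29 in A, B and C. Without LD1 B the median was −2.62, with 2 positive and 13 negative, and without LD0 B it was −0.40, with 9 and 9. ICL (isocitrate lyase), a key enzyme of the cycle, stood at 764, 1333 and 2.23 CPM in LD1 and at 4779, 2460 and 703 CPM in LD0, lower in each letter but overlapping between groups. MLS (malate synthase), its partner enzyme, stood at 52.7, 295 and 0 CPM in LD1 and at 1004, 85.5 and 499 CPM in LD0.

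Heat shock and chaperone genes had 7 positive and 10 negative values among 17 tested, with a median of −0.43. HSP17.6A, a small heat shock protein, stood at 13.2, 367 and 0 CPM in LD1 and at 1354, 237 and 2230 CPM in LD0, lower in A and C and higher in B. HSP90.1, the heat-inducible cytosolic chaperone, stood at 65.9, 138 and 6.68 CPM in LD1 and at 349.7, 104 and 334 CPM in LD0. The median of the list was +0.13 without LD1 B and +0.22 without LD0 C, so its direction rested on single libraries. Small heat shock proteins and the factor HSFA9 are also made in ripening seeds.

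Sugar genes held single large differences and no common direction. Of 19 tested genes of sugar starvation and trehalose metabolism 7 were positive and 12 negative, with a median of −0.56 that was +0.11 without LD0 C and +0.21 without LD1 C. DIN10, a raffinose synthase family gene induced in darkness, stood at 85.6, 168 and 327 CPM in LD1, against 0, 19 and 44.4 CPM in LD0, without overlap and with a value of +3.46 (SE 0.98). DRM1 (AT1G28330), associated with bud dormancy, stood at 19.8, 446 and 0 CPM in LD1 and at 592, 313 and 511 CPM in LD0. SUS1, a sucrose synthase, stood at 336, 1537 and 240.4 CPM in LD1 and at 117, 798 and 108 CPM in LD0, higher in each letter.

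Genes of photosynthesis overlapped between the groups as a list. Of 47 tested nuclear genes 18 were positive and 29 negative, with a median of −0.24 and medians of +1.24, +0.19 and −1.33 in the letters A, B and C. Their share of reads was 0.884%, 0.340% and 0.926% in LD1 and 0.350%, 0.407% and 0.682% in LD0. The 5 genes with an unadjusted p under 0.05 were all higher in LD1, beside 3.28% of all loci in that direction. CAB1, an antenna protein of photosystem II, stood at 237, 95.6 and 1057 CPM in LD1 and at 8.97, 28.5 and 276 CPM in LD0, higher in each letter. The median ran from −0.61 without LD0 A to +0.70 without LD0 C.

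Loci of the organelle genomes were highest in LD1 C. The 19 tested plastid loci had 14 positive and 5 negative values and a median of +1.21, which was −0.10 without LD1 C and +0.79 without LD0 C. The mitochondrial loci summed to 4808, 10720 and 43870 CPM in LD1 and to 5048, 7579 and 10980 CPM in LD0. ATMG00020 was the locus with most reads in LD1 C, at 21750 CPM.

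Redox and metal-binding genes had 5 positive and 15 negative values among 20 tested, with a median of −0.51. CAT3, a catalase that breaks down hydrogen peroxide and is under clock control, stood at 32.9, 495 and 93.5 CPM in LD1 and at 2483, 399 and 1288 CPM in LD0, lower in A and C and higher in B. GSTF2, a glutathione transferase, stood at 6.59, 0 and 0 CPM in LD1 and at 448, 114 and 5.55 CPM in LD0, with 1 read in LD1. The median kept its sign under all settings run, but it was −1.45 without LD1 B and −0.17 without LD0 C, and without LD1 A 10 of 21 were positive.

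Clock and light genes can differ with the hour of harvest, which the sources used here do not state. Of 17 tested clock genes 8 were positive and 9 negative, with a median of −0.03. That median changed sign in 9 of the 15 settings, with +0.64 and 12 positive and 8 negative without LD0 A, +1.095 and 9 and 2 with B and C alone, and −0.95 with A and B alone. GI, a clock protein that promotes CO expression, stood at 65.9, 20.12 and 216 CPM in LD1 and at 8.97, 9.5 and 22.8 CPM in LD0, higher in each letter and with an overlap between LD1 B and LD0 C. RVE8, a morning factor of the clock, stood at 6.59, 8.38 and 0 CPM in LD1, against 35.9, 9.5 and 21.6 CPM in LD0, without overlap. That lack of overlap rested on 1 read in LD0 B, over 5 reads in the deeper LD1 B. COP1, the ubiquitin ligase that removes CO in darkness, stood at 26.4, 13.4 and 0 CPM in LD1 and at 269, 19 and 43.8 CPM in LD0, lower in each letter.

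Stress and defence lists were short and uneven. Wound, touch and early stress genes had 3 positive and 7 negative values among 10 tested, and their median of −1.18 was +0.21 without LD0 C and −8.46 without LD1 B. TCH2, a calmodulin-like touch gene, stood at 198, 176 and 4.45 CPM in LD1 and at 0, 9.5 and 6.78 CPM in LD0. The list of abscisic acid, cold and drought genes had 3 positive and 7 negative values, but 7 positive and 4 negative without LD1 C and 7 and 5 without LD0 B. Of the jasmonate and defence list 5 genes were tested, 4 of them positive, but 1 of 5 without LD1 B and 2 of 6 without LD0 A.

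Structural genes of the cell had no common direction. Tubulin and actin genes had 13 positive and 12 negative values among 25 tested, with a median that ran from −0.32 without LD0 A to +0.27 without LD0 C, and cell wall genes 11 and 10 among 21, with −0.43 without LD0 C to +0.78 without LD0 B. TUB6, a beta-tubulin, stood at 32.9, 52 and 26.7 CPM in LD1, against 108, 76 and 367 CPM in LD0, without overlap. CESA6, a cellulose synthase of growing walls, stood at 46.1, 25.1 and 42.3 CPM in LD1, against 0, 0 and 12.3 CPM in LD0, without overlap. The 0 reads of LD0 A and LD0 B in CESA6 allow up to 26.9 and 28.5 CPM, above LD1 B, so that separation was not resolved. PME3, a pectin methylesterase that loosens or stiffens walls, stood at 230.5, 191 and 205 CPM in LD1, against 62.8, 152 and 64.1 CPM in LD0, without overlap and with LD1 libraries close together.

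The whole table was also read by protein family, as the deposited descriptions name it. MADS-box factors had 5 positive values and 1 negative among 6 tested, with a median of +1.51 that was +0.77 without LD1 A. Together they took 0.0740%, 0.0555% and 0.0662% of the reads in LD1, against 0.0193%, 0.0278% and 0.0325% in LD0, without overlap. MAF2, described as a MADS-box protein, had 3, 11 and 358 reads in LD1 and 1, 0 and 226 in LD0. The share of LD1 C thus leaned on that gene. Of the single members, all LD1 libraries lay above LD0 in 1 of the 6 and below in 1, beside 4.30% and 4.44% of all loci. Basic helix-loop-helix factors had 3 positive and 12 negative values, with a median of −0.78 that ran from −2.96 without LD1 B to −0.39 without LD0 C, and 3 of 15 lay below LD0 in every LD1 library, beside 4.44% of all loci. Late-embryogenesis proteins had 2 positive and 15 negative values, and protein phosphatases of type 2C, which include negative regulators of abscisic acid signalling, 11 and 26, with medians of −3.77 and −1.001. These were −7.40 and −2.53 without LD1 B and −1.55 and −0.40 without LD0 C.

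The larger families stood close to the whole table. Protein kinases had 207 positive and 248 negative values among 455 tested, a median of −0.19, with 17 above LD0 and 19 below beside 4.30% and 4.44% of all loci, and the median was −0.60 without LD1 B and +0.06 without LD0 C. F-box proteins had 29 positive and 44 negative values among 73, and RING finger proteins 30 and 47 among 77, the RING majority turning to 36 positive and 33 negative without LD1 C. Pentatricopeptide repeat proteins, which process organelle RNA, had 27 and 25 among 52, and RNA recognition motif proteins 27 and 28 among 55. The letter medians of these families followed those of all loci, higher in B than in C.

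Markers of vascular tissue, of trichomes and stomata, and of root were low or uneven. In the vascular list 4 of 16 genes have no row in the table used here, and the other 12 summed to 0 to 708 CPM in LD1 and to 44.8 to 560 CPM in LD0. In the trichome and stomata list 8 of 15 have no row, 1 was at 0 in each of the 6 libraries, and the other 6 summed to 45.3 to 89.0 CPM in LD1 and to 0 to 45 CPM in LD0. Most of that sum was TTG1, at 52.7, 43.6 and 89.0 CPM in LD1 and 0, 19 and 30.2 CPM in LD0. Root markers summed to 40.2 to 86.8 CPM in LD1 and to 35.9 to 66.5 CPM in LD0. The 53 nuclear photosynthesis genes, taken as the leaf mesophyll set, were not low. They summed to 4059 to 14730 CPM in LD1 and to 3416 to 9189 CPM in LD0. Whether those reads came from meristem cells or from leaf tissue was not tested.

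The authors' deposited table of the same comparison held 21524 loci with a log2 fold change and an unadjusted p. A p under 0.05 in the authors' deposited table was held by 1460 loci, 605 higher and 855 lower in LD1, and after Benjamini-Hochberg adjustment of those p-values 0 passed, with 0.405 as the smallest. In the authors' deposited table SOC1 had a log2 fold change of 4.998 with an unadjusted p of 0.00551, FT had 5.44 with 0.00295, and STP4 had −8.98 with 0.000127.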

How the data were processed

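Per the labels' protocols, RNA of laser-dissected meristems was extracted, amplified and turned into cDNA with random primers. The authors deposited raw read counts per locus in 16 columns, and BLASTN 2.2.21 or 2.2.13 was the matching tool per the file headers. The sources used here do not state match filters, strand use, build or the treatment of multiple matches. Of the cells, 49.0% were empty and read as 0. Columns of a library were summed, so a fragment with reads 1 and 2 (7 of 9 libraries) can count in both. Gene symbols came from RefSeq (23073 of 23338 identifiers matched).

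Counts were tested with edgeR 4.0.16 (R 4.3.3): TMM factors, filterByExpr with a minimum count of 10, group and library preparation (A and B against C) as terms, all 9 libraries, 5 residual degrees of freedom, contrast LD1 minus LD0, Benjamini-Hochberg adjustment over 9300 loci. CPM use TMM-scaled library sizes, and differences within letters use log2 CPM with a prior count of 2. The authors' deposited table gives log2 fold changes and unadjusted p-values of LD1 over LD0, and the submitters' processing notes name edgeR. DESeq2 1.42.0 and limma-voom (limma 3.58.1) were alternatives, as were other filters, scalings, designs and the removal of each library. The test was checked on simulated data, in which even large true differences rarely passed the adjusted threshold.

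Named genes were, per direction, the 12 with the smallest unadjusted p among loci that averaged 20 or more reads and had 1 sign in all letters, 17 flowering and meristem genes, and up to 3 members of each list by p. The groups, members, 46 lists and 26 description-based families were chosen with earlier results of these data known, so lists are described by counts and medians without a test. In 59 tested loci 1 group had no reads, and with those set to their limit of 3 pooled reads the median of all loci was −0.06 and that of the clock list 0. Single-library limits and intervals cover counting error only, since reads carried no stated molecular identifiers. They treat each read as independent. Where both reads of a fragment or amplified copies of 1 molecule were counted, they are too narrow even for that error.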

Additional observations from a re-analysis of the deposited data

How the results depend on the processing

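The edgeR count of 0 higher and 0 lower loci was 0 in both directions under every alternative run except 2. Without a filter on low counts 21 loci were higher and 86 lower, and by DESeq2 10 were higher and 22 lower. Leaving out each LD1 or LD0 library in turn gave 0 to 0 in both directions. The number with an unadjusted p under 0.05 was 592, and it was 1014 by DESeq2, 1299 by limma-voom, 1201 without LD1 B, 877 without LD0 B, 325 without LD0 C and 415 without LD1 C. The cause was not tested. Letters A, B and C correlated with their own letter at 0.073, 0.147 and 0.111 in deviations from the group means, which does not establish a pairing for A, and each LD1 library correlated best with its own letter. With the letters as a replicate block the counts were 0 and 0 and 529 loci had an unadjusted p under 0.05. Libraries B and C alone, where the BLASTN versions of LD1 and LD0 match in letter C and in letter B, were fitted as an alternative chosen after seeing the data, with 116 such loci. That fit also left out LD3 and so had the fewest libraries and residual degrees of freedom of all settings. Whether the BLASTN versions had a part in its count was not tested. Of 525 fold changes of 35 named genes under the alternatives, 480 kept direction and call, 32 passed the threshold in addition, and 13 changed sign. These were FT at −0.26 without LD1 A, TFL1 at +0.38 with the 6 libraries alone, +1.30 without LD1 C and +2.70 without LD0 C, FLOR1 at −0.026 with 1 read column, −0.23 by limma-voom, −0.38 without LD1 A, −0.25 without LD0 A and −0.96 with B and C alone, and CLV3 at +0.17 with A and B alone, +0.06 without LD1 A, +0.23 without LD1 C and +0.25 without LD0 C. With 1 library left out at a time the range was −0.26 to +7.65 for FT, −2.29 to +2.70 for TFL1, −0.38 to +0.83 for FLOR1 and −0.55 to +0.25 for CLV3. Of the 35 lists with at least 10 tested members, 12 kept the sign of their median under all 15 settings. Depth limits low genes, since 3 of the 6 libraries held 97153 to 124360 reads and 3 reads in LD0 B already stood for 28.5 CPM.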
